A study of Mus musculus with 28 samples.

Results

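The expression of 10 genes of bile duct epithelium was followed across mouse tissues, liver cell fractions and liver organoids: Spp1, Epcam, Prom1, Cftr, Anxa13, Bicc1, Pkhd1, Plet1, Gabrp and Cd44. They were taken by gene name from the probes of the array, which carried 19 probes for these 10 genes among 28034 genes. Plet1 is named by an older clone symbol in the files and was found through its RefSeq accession. The genes were chosen by earlier readings of these same arrays, log2 levels and comparisons in which they stood high in organoids or sorted duct cells, so those levels are given here as a description, with no test. All 10 passed the filter on dim probes, as did 21032 genes in all. Every member passed through arrays on which it is high, so their passing is no result.

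All mice were C57BL/6, and each of 28 arrays compared a Cy3-labelled sample with a commercial mouse reference RNA in Cy5. Liver organoids had been grown from single cells isolated for Lgr5, a receptor for R-spondins, and were kept either in an expansion medium (called EM, with 2 arrays) or in a medium for differentiation (called DM, with 1 array and no biological replicate). The liver groups, with 2 arrays each, were adult liver of wildtype mice, whole liver, a hepatocyte fraction, duct cells sorted with the antibody Mic1-1c3, cells sorted for Lgr5 from livers 6 days into carbon tetrachloride (CCl4) treatment, and livers at 3 and 13 days of CCl4, which damages hepatocytes. Muscle, white adipose tissue and brown adipose tissue (3 arrays each) and pancreas (2) were from wildtype mice. The labels call all arrays but the DM array biological replicates and name neither the ages nor the reporter used for the Lgr5 sort. Whether replicates came from separate animals was not given, so p-values measure the spread between arrays.

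Bile duct cells, or cholangiocytes, line the tubes that carry bile out of the liver and change its water, chloride and bicarbonate content. Cftr is a chloride channel of their apical membrane, and Pkhd1 encodes fibrocystin, a protein of their primary cilium whose loss causes cystic disease of ducts and kidney. Epcam, Prom1 (CD133), Cd44 and secreted Spp1 (osteopontin) are also used as markers of the duct-like progenitor cells that appear in damaged liver.

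The values rest on single oligonucleotide probes. The only probe of Epcam is shown, with 1 internal probe each of Prom1, Plet1 and Cd44, because the readings of those 3 are set below against a probe nearer the 3′ end of the same gene. Coordinates are given in mm9, as in the scanner files. The Epcam probe A_52_P447944 (chr17:88048972-88049800, plus strand) spans a stretch longer than its sequence. The others are Prom1 probe A_52_P402786 (chr5:44397410-44397469, minus strand), Plet1 probe A_52_P506995 (chr9:50307294-50307353, plus strand) and Cd44 probe A_51_P407053 (chr2:102674420-102674479, minus strand). Each is written 5′ to 3′ in lower case.
Epcam: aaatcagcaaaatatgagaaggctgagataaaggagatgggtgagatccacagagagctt
Prom1: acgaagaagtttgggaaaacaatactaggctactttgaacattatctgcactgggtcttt
Plet1: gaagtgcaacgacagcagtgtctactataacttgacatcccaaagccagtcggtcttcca
Cd44: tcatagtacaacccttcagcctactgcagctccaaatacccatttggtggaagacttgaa

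RefSeq promoter windows of 250 bases before the start (GRCm38.p6) were found for 8 of the 10 genes, 10 windows in all, and not for Anxa13 and Bicc1. They were searched on both strands for GTTAAT followed by any base and ATT, a core of sites of HNF1, a factor of duct and liver cells. Pkhd1 was the only gene of the 8 with a match, 79 bases before its start, against 0.371% of 32851 windows of the same length. Its window (chr1:20618058-20618307, minus strand) is shown with the match in capitals.
Pkhd1: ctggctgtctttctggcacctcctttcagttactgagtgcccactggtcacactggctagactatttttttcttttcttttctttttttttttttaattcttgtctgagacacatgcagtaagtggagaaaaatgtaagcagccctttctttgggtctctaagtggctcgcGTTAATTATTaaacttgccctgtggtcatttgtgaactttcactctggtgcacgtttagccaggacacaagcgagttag
TGANTCA, a loose form of the core of AP-1 sites, lay in the Plet1 window and in both Prom1 windows, and in 6.75% of all windows. The core itself has C or G in the middle. The matches read TGATTCA in Plet1 and TGAATCA and TGACTCA in Prom1, so only the last holds that core. AACNNGTT, a core of grainyhead-like factor sites, lay in both Prom1 windows and in 3.64% of all. GGAATG, a core of TEAD sites, lay in none of the members' windows and in 12.6% of all. A match describes the letters of a window and is not a measured binding site.

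Levels below are log2 of Cy3 over Cy5, so they are relative to the reference RNA and can be compared between samples for a gene but not between genes. Between 17.7 and 69.1% of the probes on an array had a Cy3 signal well above background. The arrays labelled Lgr5-sorted were among the dimmest (21 and 18.5%), and Lgr5 itself was above background on neither of them, at 0.07 and 0.24. Their macrophage markers, such as Lyz2 and Adgre1, had a mean log2 level of 3.78 and 6.63, against 1.27 and 2.27 in whole liver and 0.72 and 1.08 in sorted duct cells. Sorted duct cells also held transcripts of other cells: endothelial markers averaged 3.17 and 4.19 with 10 of 10 above background on both arrays, and stellate cell markers 1.67 and 2.18. In EM organoids 0 to 3 of 10 endothelial markers were above background. In samples of mixed cells, more cells of a type and more RNA per cell cannot be told apart.

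**Figure D1:**
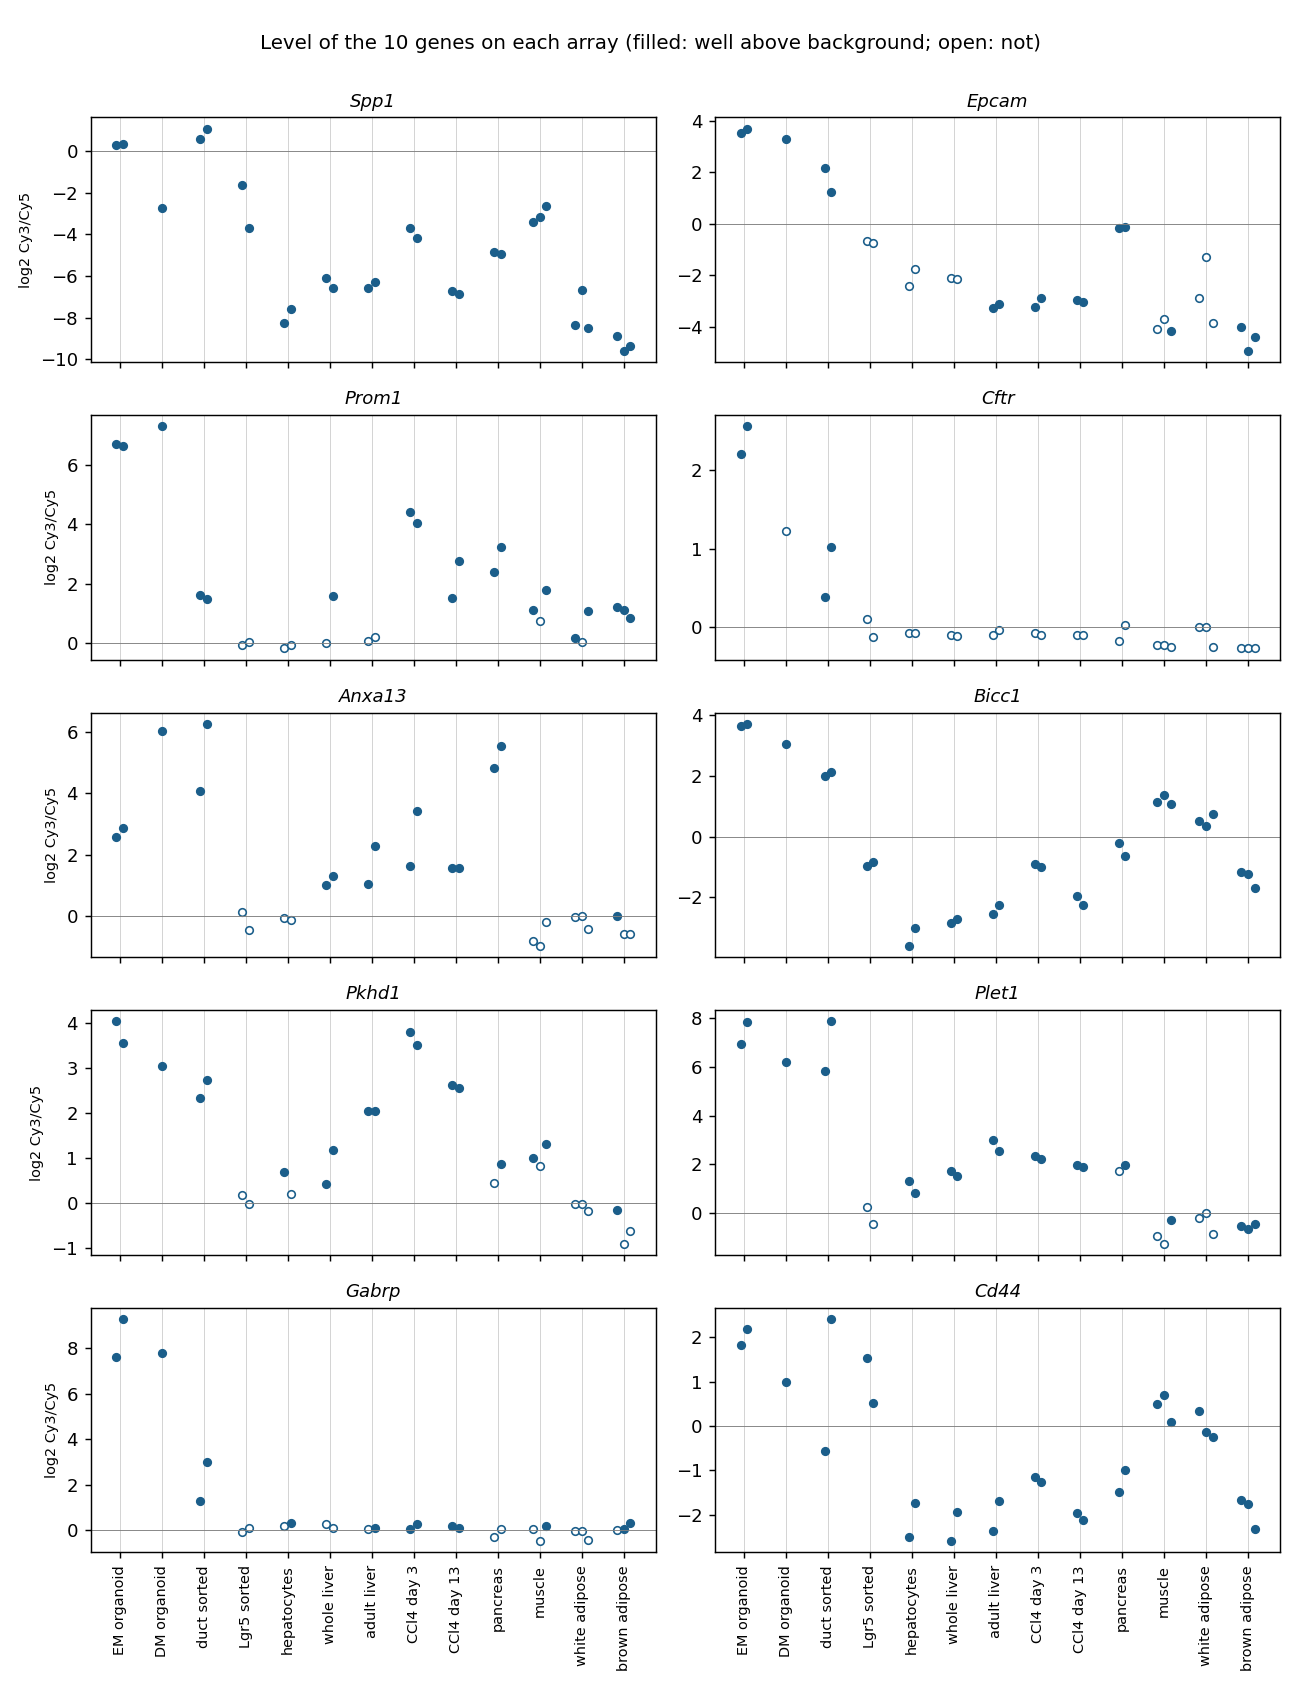
Log2 Cy3/Cy5 of the 10 genes on each of 28 arrays, by group. Each point is an array, filled where the probe was well above background in Cy3. EM organoids and sorted duct cells stand high for most genes, while Gabrp reaches 7.64 and 9.29 in EM organoids and at most 3.02 in any tissue or sorted cell group.

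Among the surface proteins, Epcam, a homophilic adhesion molecule of epithelia, read 3.54 and 3.7 in EM organoids, 3.3 in the DM organoid and 2.18 and 1.23 in sorted duct cells. Pancreas followed at -0.16 and -0.13. Epcam was above background on 17 of 28 arrays and on none of hepatocytes, whole liver or the Lgr5-sorted label. The 3 highest groups did not overlap. The order of hepatocytes, whole liver, white adipose tissue, both CCl4 times and adult liver was within their spread.

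Prom1, a pentaspan protein of membrane protrusions, was highest in the DM organoid at 7.31, with EM organoids at 6.72 and 6.65. The livers at day 3 of CCl4 came next at 4.42 and 4.03, above pancreas at 2.38 and 3.25. Day 13 (1.52 and 2.77), sorted duct cells (1.61 and 1.47), muscle, brown adipose tissue and whole liver were neighbours in the order whose arrays overlapped. Prom1 was thus lower in sorted duct cells than in livers at day 3, the reverse of Epcam, Spp1 and Bicc1. It was above background on 19 arrays and on neither adult liver array.

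Cd44, a receptor for hyaluronan and osteopontin, was above background on all 28 arrays. It read 1.82 and 2.19 in EM organoids, 1.54 and 0.52 in the Lgr5-sorted label and 0.99 in the DM organoid. The 2 duct arrays disagreed, at -0.57 and 2.41, and so spanned the levels of EM organoids, the Lgr5-sorted label, the DM organoid, muscle and white adipose tissue. Muscle stood at 0.49, 0.7 and 0.09. Undamaged livers, hepatocytes, day 13 and brown adipose tissue lay between -2.6 and -1.67 and overlapped. The split of the duct arrays was that of the probe used here, A_52_P229536. On the other 3′ probe, A_52_P523459, duct cells read 0.14 to 0.53, below EM organoids at 2.1 to 2.84.

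Plet1, a surface protein first named from placenta, read 6.95 and 7.83 in EM organoids, 5.85 and 7.87 in sorted duct cells and 6.21 in the DM organoid. The range of the duct cells held both of the others. Adult liver was the next group, at 2.98 and 2.53. Plet1 was above background on 20 arrays and on neither array of the Lgr5-sorted label.

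Of the secreted and transport proteins, Spp1, the phosphoprotein osteopontin, was measured on all 28 arrays and had the widest range. Sorted duct cells led at 0.59 and 1.08, just above EM organoids at 0.28 and 0.33. The Lgr5-sorted label (-1.65 and -3.69), the DM organoid (-2.75) and muscle (-3.39, -3.15 and -2.62) overlapped. The livers at day 3 stood at -3.72 and -4.19, the undamaged livers between -6.58 and -6.09, and hepatocytes at -8.24 and -7.61. Brown adipose tissue was lowest, at -8.9, -9.6 and -9.36.

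Cftr was above background on 4 arrays only, those of EM organoids (2.2 and 2.56) and sorted duct cells (0.38 and 1.02). The DM organoid read 1.23 and was not well above background. Every other array lay between -0.27 and 0.1, with no order to be read. Gabrp, the pi subunit of the GABA-A receptor, a chloride channel opened by the transmitter GABA, was high in organoids only: 7.64 and 9.29 in EM and 7.78 in DM. Sorted duct cells gave 1.29 and 3.02, and the other groups lay between -0.48 and 0.32.

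Anxa13, an annexin of apical epithelial membranes, read 6.05 in the DM organoid, 4.83 and 5.56 in pancreas, 4.09 and 6.28 in sorted duct cells, and 2.57 and 2.87 in EM organoids. Pancreas and duct cells overlapped, and the DM value lay within the range of duct cells. Day 3 (1.62 and 3.43) overlapped with EM organoids and with adult liver (1.05 and 2.28), which did not overlap with each other. It was the member for which EM organoids stood lowest in the order, in the fourth place.

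Bicc1, an RNA-binding protein whose loss gives cystic kidneys, was above background on all 28 arrays and read 3.66 and 3.72 in EM organoids, 3.05 in DM and 2.01 and 2.13 in sorted duct cells. These groups did not overlap on this probe, but on the second Bicc1 probe, given below, EM organoids overlapped with both of the others. Muscle followed at 1.15, 1.36 and 1.07 and hepatocytes were lowest at -3.6 and -2.99. Pkhd1 read 4.03 and 3.56 in EM organoids and overlapped with day 3 of CCl4 at 3.8 and 3.51. The DM organoid was at 3.03, day 13 at 2.61 and 2.55, sorted duct cells at 2.32 and 2.72, and adult liver at 2.04 on both arrays. Whole liver, at 0.43 and 1.17, lay below adult liver, so that the 2 sets of undamaged livers did not overlap for Pkhd1.

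EM organoids were first set against sorted duct cells, to ask how cultured cells differ from the duct cells of the liver for these genes. The EM arrays shared no slide and no scan day with the duct arrays. A shift between slides or days could thus not be separated from a difference between the cells, and its part was not tested. Gabrp, Prom1, Epcam, Cftr, Bicc1 and Pkhd1 were past the call rule as higher in EM organoids and Anxa13 as lower. Spp1, Plet1 and Cd44 were not past it. Calls needed a change of at least 1 on the log2 scale and, in limma, a p under 0.05 after Benjamini-Hochberg adjustment over all genes. High levels in EM organoids and in sorted duct cells were among the values that chose the genes. The members are therefore described here with no test, and nothing is read from their count. The 7 members past the rule stand beside 26.6% of all genes called, the 6 higher beside 12.6% and the 1 lower beside 14%. Changes are given as log2 differences ± standard error, with 2 arrays in each group. Genes that were tested also have an adjusted p from limma.

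The largest difference was that of Gabrp, 6.31 ± 0.43, followed by Prom1 at 5.14 ± 0.46. The channel gene Cftr differed by 1.68 ± 0.18. For these 3 genes both organoid arrays were above both duct arrays, a pattern not counted over all genes. Bicc1 differed by 1.62 ± 0.22, Epcam by 1.92 ± 0.51 and Pkhd1 by 1.27 ± 0.27. Anxa13 was the exception in the other direction, at -2.47 ± 0.57. Its pair of duct arrays spanned 4.09 to 6.28.

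Sorted duct replicate 2 decided several of these. Without it the Epcam difference was 1.44 and that of Anxa13 -1.37, and neither was past the rule. Cd44, at 1.09 ± 0.59, and Plet1, at 0.53 ± 0.46, were past it without that array, at 2.58 and 1.54. Spp1 was at -0.53 ± 0.54.

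The reference channel also mattered here. With Cy3 alone, scaled to the 75th percentile of each array, Cftr stood at -0.24 and Pkhd1 at -0.29, with the median of all genes at -0.93. Scaled on spots detected on all arrays, they stood at -1.15 and -1.20 with that median at -1.84, so both lay above the median of all genes under either scaling. Pkhd1 was also below 0 with Agilent's own log ratio (-0.85) and with quantiles of both channels (-0.27). Of all genes called, 47.3% were higher in organoids, against 27 and 8.14% with Cy3 alone under these scalings and 57.6% with quantiles of both channels. Prom1 was at 2.03 with Agilent's log ratio and not past the rule. Gabrp kept its direction under every normalization tried and was past the rule under each of them.

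**Figure D2:**
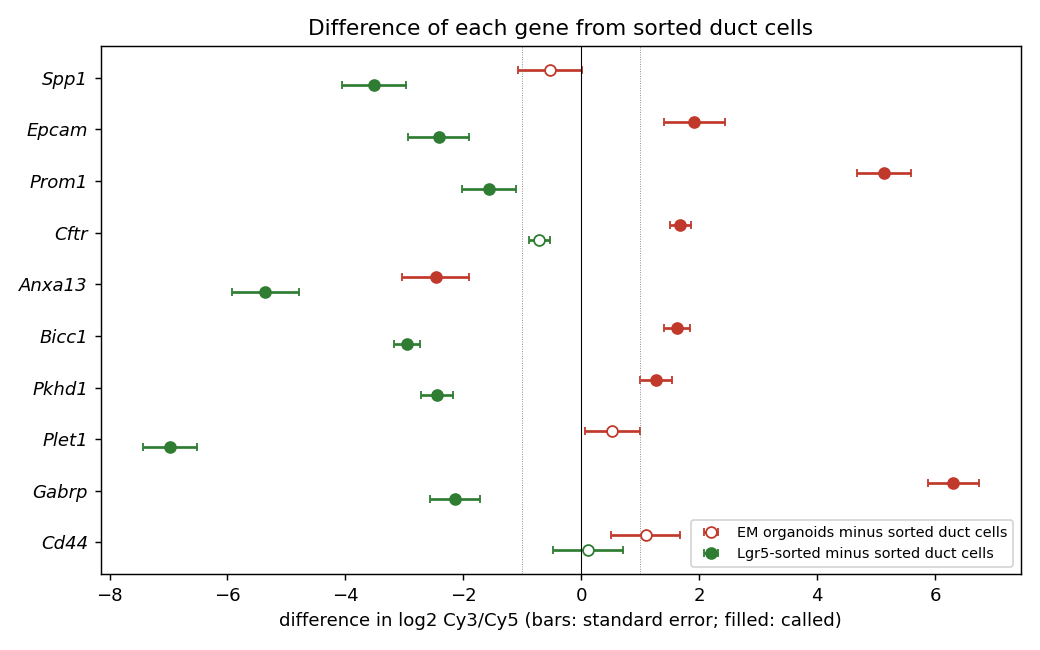
Log2 changes of the 10 genes against sorted duct cells in EM organoids and in cells of the Lgr5-sorted label. Points are limma estimates, bars their standard errors, and filled points were called. Gabrp and Prom1 lie at 6.31 and 5.14 in EM organoids, while 8 of the 10 genes were past the call rule as lower in the Lgr5-sorted label.

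Other genes of duct epithelium were taken from lists chosen with earlier results of these data known. The adjusted p-values of list genes, here and below, are therefore not independent tests. Of 18 genes of duct structure, such as keratins and junction proteins, 8 were higher in EM organoids than in sorted duct cells and 0 lower (median 0.9, against -0.03 over all genes). Of all genes 12.6% were higher and 14% lower. Ehf, an epithelial ETS factor, was at 3.16 ± 0.22 (adjusted p = 2.02e-09). Of 13 genes of duct secretion and transport, 4 were higher and 1 lower, against the same shares of all genes. The calcium-activated chloride channel Ano1 was at 2.08 ± 0.35 (adjusted p = 7.44e-05) and the bile acid transporter Slc10a2 at 1.81 ± 0.43 (adjusted p = 0.00216). The water channel Aqp1, which blood vessels also express, was at -5.56 ± 0.86 (adjusted p = 3.48e-05).

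Of 11 tested genes of the cilium and cystic disease, 3 were called, a share near the 26.6% of all genes, with 2 higher and 1 lower: the transport proteins Ift88 (1.13) and Kif3a (1.00), and Pkd1 (-1.76, adjusted p = 1.22e-05), which encodes polycystin-1. Of 15 ligands and receptors of Cd44 and Spp1, 8 were lower and 0 higher (median -1.05), against 14% and 12.6% of all genes. The hyaluronan synthase Has2 was at least 4.1-fold lower, and Has1, above background on neither EM array, differed by -4.23. Here "at least" sets the bright group's mean against the dim group's detection floor, in Cy3 after loess and quantile scaling, and is open to dye bias. It is printed only where it is no larger than the fold of the log2 ratios, and the log2 difference is given otherwise. In the same comparison 9 of 10 stellate and 9 of 10 endothelial markers were lower in EM organoids, against 14% of all genes. Their part in these differences was not tested.

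Other subunits of the GABA-A receptor were not called beside Gabrp. Of 15 listed, 9 were tested, and limma called 0 of them in this comparison, with 0 at an unadjusted p under 0.05. Among 10 tested annexins, relatives of Anxa13 that bind membranes in a calcium-dependent way, 5 were higher and 2 lower. Of all genes 12.6% were higher and 14% lower, so the 2 lower are near that share. Anxa8 (4.43 ± 0.26) and Anxa3 (2.73) rose most, while Anxa9 (-1.27) and Anxa7 (-1.01) fell with Anxa13.

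The comparison with adult liver was among those that chose the genes, so it is described only. There 9 members were past the call rule, against 32% of all genes, and Anxa13 was not, at 1.05 ± 0.57. Nothing is read from that count, since the choice of genes favoured it. The same holds for sorted duct cells against hepatocytes, with 9 members past it against 23.2% of all genes and Cftr at 0.77. Epcam was at least 11.1-fold higher in duct cells, and Anxa13 and Prom1, above background on neither hepatocyte array, differed by 5.30 ± 0.57 and 1.66 ± 0.46. Without duct replicate 1 Cftr was past the rule, at 1.09, and without duct replicate 2 Gabrp was not, at 1.05.

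The single DM array was set beside EM organoids as a description, since it has no replicate. The standard errors and the call rule then assume that it varies like the arrays of the other groups. There were 3 members past the call rule, against 10.2% of all genes (6.2% higher and 3.99% lower). Anxa13 was higher by 3.34 ± 0.70, Spp1 was at -3.06 ± 0.66, and Cftr was at least 1.64-fold lower (-0.97 and not past the rule without EM replicate 2). On the slide shared by the DM array and EM replicate 2, the differences were 3.18 for Anxa13 and -3.08 for Spp1. Plet1 (-1.18) and Cd44 (-1.02) were not past it. With the mean over all tested probes of a gene, 5 members were past the rule. The DM organoid set against adult liver had 9 members past the rule, against 28.3% of all genes, with Pkhd1 at 0.99.

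Cells of the Lgr5-sorted label were then set beside sorted duct cells. Only the former came from livers labelled with CCl4, at 6 days. High levels in duct cells were among the values that chose the genes, so lower values were favoured by the choice, the members are described with no test, and nothing is read from their count. In the Lgr5-sorted label 8 members were past the call rule as lower and 0 as higher, against 11.4% of all genes, 5.39% lower and 6.01% higher. Plet1 differed by -6.98 ± 0.46 and Anxa13 by -5.36 ± 0.57, both above background on neither Lgr5-sorted array. The other genes not above background there were Pkhd1 (-2.45 ± 0.27), Gabrp (-2.14 ± 0.43), Prom1 (-1.57 ± 0.46) and Epcam, at least 4.4-fold lower. Prom1 was not past the rule when any 1 of the 4 arrays was left out, and Gabrp was not without duct replicate 2 (-1.27).

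Spp1 and Bicc1 were measured on both sides. Spp1 differed by -3.51 ± 0.54 and Bicc1 by -2.96 ± 0.22. Cftr was at -0.71 ± 0.18, under the size required, and was past the rule without duct replicate 1 (-1.03). Cd44 was at 0.11 ± 0.59.

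Each replicate pair lay on a slide of its own, so the difference could be read within slides. All 8 of these genes were lower on both slides, from -1.37 (Gabrp) to -5.62 (Plet1) on 1 slide and from -1.46 (Prom1) to -8.33 (Plet1) on the other. With the probe that stands for the gene, Cd44 was 2.11 on 1 slide and -1.89 on the other. These opposite signs lay behind the Cd44 mean near 0. It was past the rule as lower without duct replicate 1 (-1.38) and as higher without duct replicate 2 (1.60).

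Against whole liver, the same Lgr5-sorted arrays were higher for Spp1, Cd44, Bicc1 and Epcam and lower for Plet1, against 21.4% of all genes called, 12% higher and 9.43% lower. Spp1 differed by 3.66 ± 0.54 (adjusted p = 1.92e-05), Cd44 by 3.29 ± 0.59 (adjusted p = 0.000194) and Bicc1 by 1.89 ± 0.22 (adjusted p = 1.28e-06). On the 2 slides the differences were 4.44 and 2.88 for Spp1, 4.13 and 2.45 for Cd44, and 1.87 and 1.90 for Bicc1. Epcam, at 1.42 (adjusted p = 0.0389), was above background on no array of either group, has no fold, and was not called when any 1 of the 4 arrays was left out. Plet1 was at least 3.15-fold lower (adjusted p = 0.00663). Without Lgr5-sorted replicate 2 it was at -1.38 (adjusted p = 0.0907). The comparisons with duct cells and whole liver share the Lgr5-sorted arrays. The labels of whole liver name no CCl4 either, so in both comparisons the sort and the treatment cannot be told apart.

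On these dim arrays the direction depended on the scaling. With Cy3 alone scaled to the 75th percentile, Spp1 stood at -0.90 and Bicc1 at -0.12 against whole liver, below the median of all genes at 0.42, and the share of all calls that were higher fell from 56 to 6.56%. With Cy3 scaled on spots detected on all arrays, that share was 96%, all 10 members were called higher with 87.3% of all genes, and the median of all genes was at 2.88. Against duct cells the share of calls that were higher was 52.7%, and 5.51 and 97.9% under these scalings. Agilent's log ratio gave 29.6% against duct cells and 36.5% against whole liver. Against duct cells and with the spots detected on all arrays, Prom1 stood at 1.17, Cftr at 2.15, Pkhd1 at 0.55 and Gabrp at 0.98, all below the median of all genes at 2.34. Cd44 was called higher than in whole liver under each of these scalings.

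Of the 10 macrophage markers, 8 were called higher in the Lgr5-sorted label against both duct cells and whole liver. Of all genes 6.01% and 12% were called higher there. Cd44, Spp1 and several annexins are also made by macrophages. Hepatocyte markers averaged 1.43 and 1.91, against 6.25 and 7.65 in whole liver. Krt19, the keratin that defines duct cells, was above background on neither Lgr5-sorted array (-0.90 and -0.89). The part of these cells in the Spp1 and Cd44 values was not tested.

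The wider lists gave 14 of 18 duct structure genes lower than in duct cells and 0 higher, against 5.39% and 6.01% of all genes. Krt23, above background on neither Lgr5-sorted array, was at -6.71 ± 0.68 (adjusted p = 1.2e-06), and Krt8 was at -5.77 ± 0.33 (adjusted p = 5.88e-09) with 1 duct array left out as an outlier spot. Against whole liver 3 were higher and 3 lower, counts near the 12% and 9.43% of all genes. Among the lower was the duct and liver factor Onecut1, at least 7.57-fold. Of the transport genes, 4 were lower than in duct cells, with the purine receptor P2ry2 at -2.70 and Ano1 at -1.93, neither above background on the Lgr5-sorted arrays. Against whole liver the calcium release channel Itpr3 was at 4.06 and Aqp1 at 2.54. Of the 15 ligands and receptors of Cd44 and Spp1, 5 were higher than in whole liver and 2 lower, against the same shares of all genes. The osteopontin-binding integrin Itgb5 (2.81) and Ezr (2.14), which ties Cd44 to actin, led the rises, and Rdx (-2.15) and Hyal1 (-1.23) were lower. Annexins were higher than in whole liver for 5 of 10, against 12% of all genes. Anxa3 (5.13) and Anxa1 (3.19) led them, while Anxa13 was not above background.

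Hepatocytes were compared with whole liver, which also holds ducts. Limma called 0 members, against 0.751% of all genes (0.366% higher and 0.385% lower), and 3 had an unadjusted p under 0.05. Spp1 was at -1.60 ± 0.54 (adjusted p = 0.193). The hepatocyte fraction gave 48.7% of all calls higher, and 19.6, 18.8 and 72.7% under other scalings.

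The time course of CCl4 asked how these genes move in damaged liver. Prom1, Spp1, Pkhd1 and Bicc1 were higher at day 3 than in the 4 undamaged livers, while Epcam, Plet1, Gabrp and Cftr showed changes between -0.40 and 0.08. The 4 members called, all higher, stand against 7.05% of all genes called, 5.05% higher and 2% lower. Prom1 differed by 3.76 ± 0.40 (adjusted p = 1.86e-06) and Pkhd1 by 2.24 ± 0.24 (adjusted p = 1.75e-06). Spp1 differed by 2.43 ± 0.47 (adjusted p = 0.00112) and Bicc1 by 1.63 ± 0.19 (adjusted p = 6.63e-06). For each of these 4 genes both day 3 arrays lay above all 4 undamaged arrays, as they did for Cd44, which was not called. The share of all genes without overlap was not counted. Anxa13 (1.11, adjusted p = 0.149, or 2.02 and 0.0385 without day 3 replicate 1) and Cd44 (0.93, adjusted p = 0.27) did not pass.

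No slide or scan day held both CCl4 and undamaged livers, so batch and treatment cannot be told apart in these comparisons. With Cy3 scaled on spots detected on all arrays, 2 members were called, with Prom1 at 1.81 (adjusted p = 0.0551) and Pkhd1 at 1.09 (adjusted p = 0.219). With Agilent's log ratio Pkhd1 was at 1.20 (adjusted p = 0.448). The share of all calls that were higher was 71.7%, and 57, 40.8 and 55.8% with Cy3 alone under both scalings and with quantiles of both channels.

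At day 13, Prom1 and Pkhd1 were higher than in undamaged liver, against 1.34% of all genes called, 0.922% higher and 0.414% lower. Prom1 differed by 1.68 ± 0.40 (adjusted p = 0.0275) and Pkhd1 by 1.16 ± 0.24 (adjusted p = 0.0105). Both rested on few arrays. Prom1 was not called without day 13 replicate 2 (1.05, adjusted p = 0.596), whole liver replicate 1 (1.28, adjusted p = 0.0815) or adult liver replicate 1 (1.64, adjusted p = 0.0818). Pkhd1 was not called without day 13 replicate 1 (1.13, adjusted p = 0.156), day 13 replicate 2 (1.19, adjusted p = 0.136) or whole liver replicate 1 (0.98), nor against adult liver alone (0.54, adjusted p = 0.444). Of all calls 69% were higher, and 36.4 and 49.6% under other scalings.

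The 4 CCl4 arrays lay on 1 slide and were scanned together, so days 13 and 3 could be compared within a batch. Spp1, Prom1, Bicc1 and Pkhd1 were lower at day 13, against 5.63% of all genes called, 3.52% lower and 2.12% higher. Spp1 fell by 2.84 ± 0.54 (adjusted p = 0.00152), from -3.72 and -4.19 to -6.71 and -6.87, just below undamaged liver. Prom1 fell by 2.08 ± 0.46 (adjusted p = 0.00561), Bicc1 fell by 1.14 ± 0.22 (adjusted p = 0.00203) and Pkhd1 fell by 1.07 ± 0.27 (adjusted p = 0.0152). The arrays of the days did not overlap for any of the 4, nor for Anxa13, Plet1 and Cd44, which were not called. The share of all genes without overlap was not counted here either, so nothing is read from this. Spp1 was the only one of the 4 still called under every setting and with each array left out. Bicc1 lost its call under 3 settings (changes of -0.91 to -1.16). Prom1 was not called without day 13 replicate 1 (adjusted p = 0.151) or day 3 replicate 1 (adjusted p = 0.078). Pkhd1 was not called without either of these or without day 13 replicate 2. Of all calls 37.6% were higher at day 13, and 50.8 and 49.7% under other scalings.

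**Figure D3:**
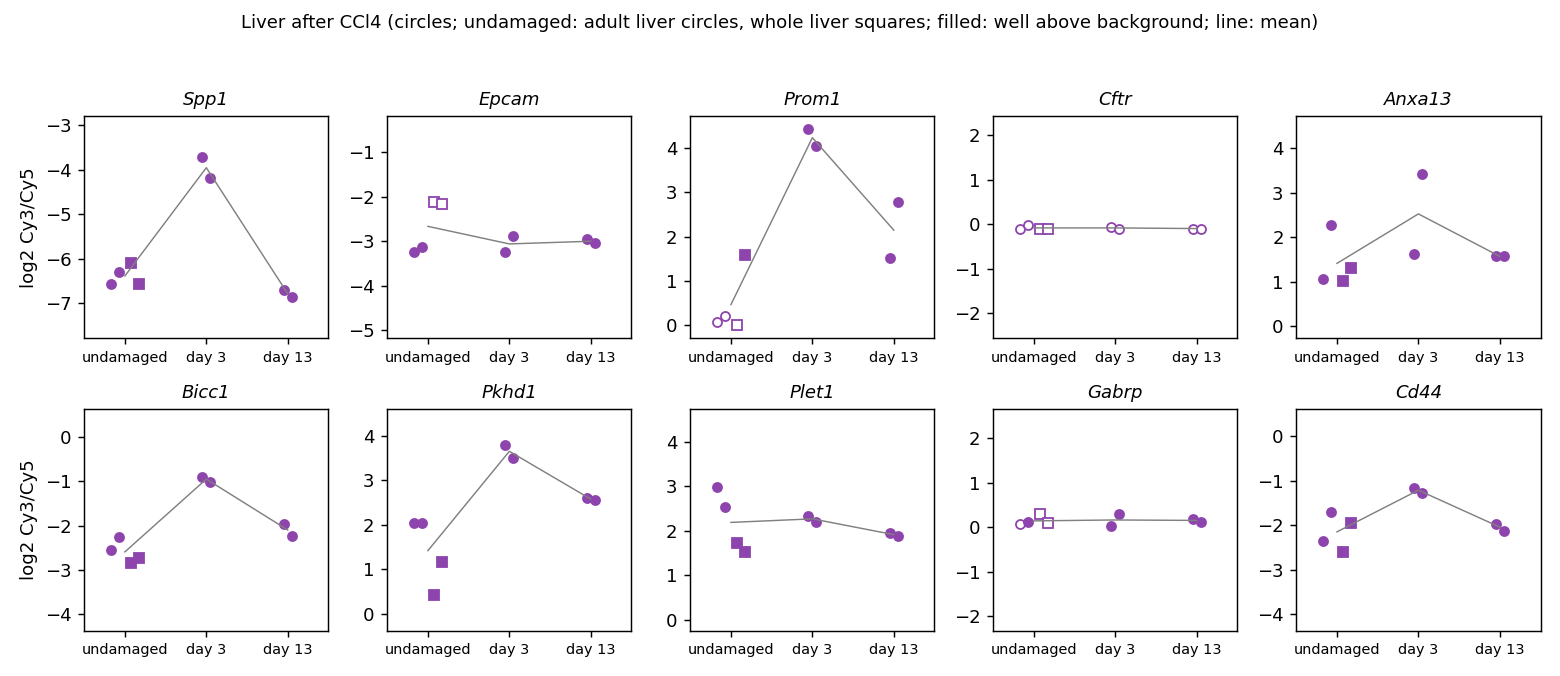
Log2 Cy3/Cy5 of the 10 genes on the 4 undamaged liver arrays, the 2 arrays at day 3 and the 2 at day 13 of CCl4. Each point is an array, filled where well above background, with whole liver as squares and lines through the means. Prom1 lies at 4.42 and 4.03 at day 3 and at 1.52 and 2.77 at day 13.

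The wider lists gave these counts. Of all genes, 5.05% were higher and 2% lower at day 3, and 3.52% were lower at day 13 than at day 3. At day 3, 3 of 18 duct structure genes were higher and 0 lower (median 0.33), with the adhesion protein Cdh1 at 3.43 ± 0.49 (adjusted p = 6.61e-05) and the keratin Krt18, which hepatocytes also make, at 2.36 ± 0.32 (adjusted p = 3.49e-05). From day 3 to day 13, 4 were lower, with Krt18 at -2.27 and Cdh1 at -1.85 (adjusted p = 0.049). Slc10a2 was higher at day 3 by 1.55 (adjusted p = 0.00714) and Itpr3 by 1.12 (adjusted p = 0.000305), and Slc10a2 was lower at day 13 than at day 3 (-1.94, adjusted p = 0.00608). Of the ligands and receptors of Cd44 and Spp1, the osteopontin-binding integrin Itgb3 was higher at day 3 by 1.29 (adjusted p = 0.0113). Limma called 0 of the 11 cilium genes at either time or between them, with 3, 1 and 2 at an unadjusted p under 0.05.

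Annexins other than Anxa13 were higher at day 3 for 5 of 10 and lower for 0 (median 0.92). Anxa2 was at 2.59 ± 0.18 (adjusted p = 1.24e-08) and Anxa1 at 2.10 ± 0.29 (adjusted p = 3.51e-05). Of these annexins 5 were lower at day 13 than at day 3, with Anxa2 at -2.29 and Anxa3 at -1.91. Stellate cell markers averaged 0.90 and 1.05 at day 3, from -1.26 to -0.74 in undamaged livers and -0.36 and -0.20 at day 13, and 6 of 10 were called higher at day 3. Hepatocyte markers lay between 6.35 and 6.57 at both times. On 1 array at day 13 skeletal muscle markers averaged 2.92, against -0.21 on the other. The part of these cells in the changes was not tested.

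Pancreas, another organ with a ductal tree, was set beside EM organoids. On its 2 arrays acinar markers averaged 9.15 and 8.05 and islet markers 6.66 and 6.29. The comparison is thus not with pancreatic duct cells alone, and the part of the other cells was not tested. Pancreas replicate 1 was also dim, with 17.7% of probes well above background. High levels in organoids were among the values that chose the genes, so this too is a description of the members with no test, and nothing is read from their count. All 10 were past the call rule, against 28.2% of all genes: 9 higher, against 10.3%, and Anxa13 lower, against 17.9%. Gabrp was at least 189-fold higher and Cftr at least 2.95-fold higher, both above background on neither pancreas array. Plet1 differed by 5.55 ± 0.46, Spp1 by 5.19 ± 0.54 and Bicc1 by 4.10 ± 0.22. The remaining 4 genes that were higher had changes between 3.13 ± 0.27 (Pkhd1) and 3.87 ± 0.46 (Prom1).

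Anxa13 differed by -2.48 ± 0.57, with -1.96 on the slide shared by EM replicate 2 and pancreas replicate 1. With Cy3 scaled on spots detected on all arrays, Cftr was at -0.96, with the median of all genes at -2.05. Of all calls 36.6% were higher in organoids, and 54.3, 26.8, 6.99 and 47.9% under other scalings. Of the duct structure genes 11 of 18 were higher and 0 lower, with Ehf at 4.51, and of the transport genes 7 of 13 were higher. Of all genes 10.3% were higher and 17.9% lower. Of the 9 GABA-A subunits only Gabra4 was called, at least 8.06-fold lower, with 2 at an unadjusted p under 0.05.

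Genes with several probes showed how far a value depends on where the probe lies. The internal Prom1 probe shown above gave 5.93 and 6.72 in EM organoids, 7.02 in DM, 2.42 and 2.60 at day 3, between 0.72 and 1.49 at day 13, and 0.36 to 0.62 in sorted duct cells, the same order as the 3′ probe. The internal Plet1 probe was above background on 8 arrays and read 3.93 and 4.28 in EM organoids, 3.07 and 3.81 in duct cells and 2.85 in DM, with every other array between -0.70 and 0.42. The second Anxa13 probe gave 5.66 in DM, 2.92 to 3.85 in pancreas, 2.91 to 3.31 in duct cells and 1.62 to 1.68 in EM organoids. The second Bicc1 probe gave 1.66 to 2.86 in EM organoids, 2.85 in DM and 0.62 to 2.48 in duct cells. Its difference between EM organoids and duct cells was 0.71 ± 0.42, against 1.62 with the probe that stands for the gene. At day 3 of CCl4 it read -0.04 to 0.16, and in undamaged livers -1.36 to -0.41.

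Cd44 differed by probe. Its internal probe, on the 5′ side of the others, read 2.94 and 2.5 in EM organoids, the second not well above background, and 1.20 in DM. In duct cells it gave 0.21 to 0.33 and in the Lgr5-sorted label 0.11 and 0.15, the latter not above background. The difference between the Lgr5-sorted label and whole liver was 0.06 with this probe and 3.29 and 2.59 with the 3′ probes. That between EM organoids and duct cells was 2.45, against 1.09 and 2.14. Probes of a gene can differ in efficiency and in the transcripts they meet, and these were not separated here. A second Cftr probe was above background on no array.

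Pkhd1 differed by probe as well. The probe that stands for the gene lies nearest its 3′ end, and the other 2, A_51_P322482 and A_52_P576007, stayed near 0 on most arrays, the former above background on no EM array (-0.62 and -0.35). For EM organoids against duct cells these 2 gave -0.60 and 0.95, against 1.27. At day 3 against undamaged livers they gave 0.56 and 0.47, against 2.24, and for day 13 against day 3 they gave -0.13 and -0.23, against -1.07. The Pkhd1 changes described above thus rest on 1 probe of 3.

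**Figure D4:**
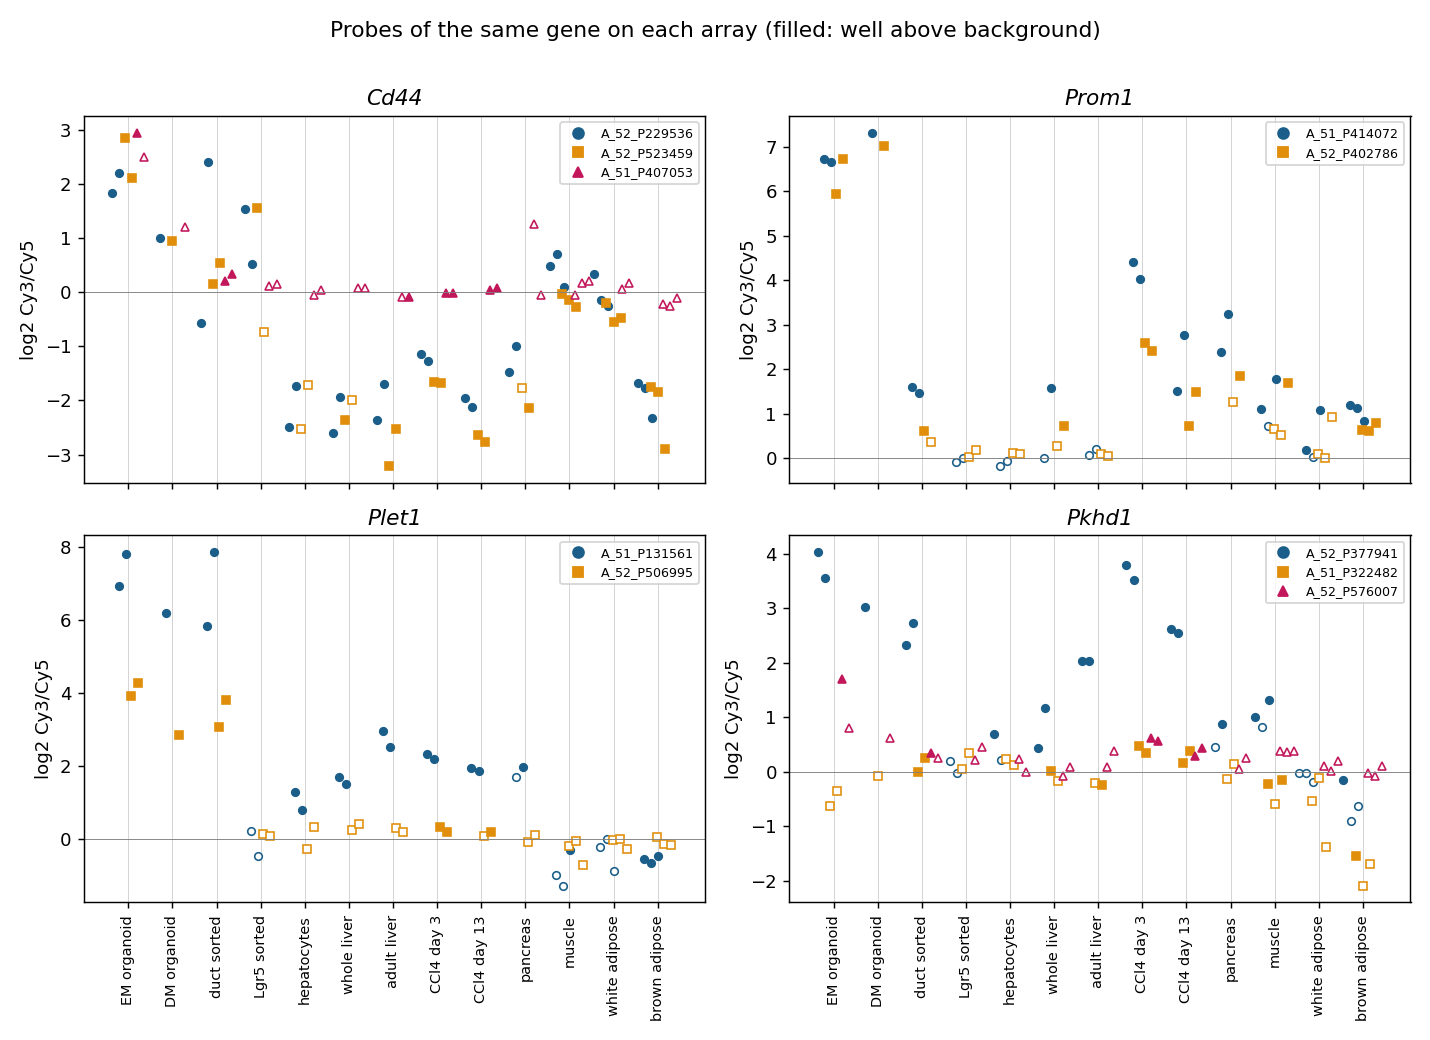
Log2 Cy3/Cy5 by array for Cd44, Prom1, Plet1 and Pkhd1, with a colour and marker for each probe, filled where well above background. The internal Cd44 probe (A_51_P407053) is high in EM organoids and near 0 in the Lgr5-sorted label, where the 3′ probe A_52_P229536 reads 1.54 and 0.52.

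Across the 13 group means, the 45 pairs of members correlated from 0.29 (Anxa13 with Cd44) to 0.95 (Cftr with Gabrp), with a median of 0.70 and 39 pairs above 0.5. These are descriptions over 13 points that share the reference RNA, and members were chosen for like patterns. For each member the 3 other genes with the most similar group means were taken. Gabrp was nearest to Mab21l3 (r = 0.996), Ehf (0.990) and Duoxa2 (0.989), and Epcam to Kcnn4 (0.986), Sema3f (0.983) and Macc1 (0.983). Ehf itself read 4.64 and 5.32 in EM organoids, 4.48 in DM and 1.77 and 1.87 in duct cells. Bicc1 was nearest to Glis2 (0.972), a zinc finger factor whose loss causes nephronophthisis, and Pkhd1 to Shb (0.965), Marveld2 (0.941) and Foxa1 (0.912). Cftr was nearest to Csf2 (0.990), but its means rest on the 4 arrays above background. The nearest genes of Spp1 were Tnfrsf12a (0.929), Marcksl1 (0.925) and Sphk1 (0.916), and those of Cd44 were Specc1 (0.971) and Npm1 (0.957). Prom1 was nearest to Plek2 (0.954), Plet1 to Rab11fip1 (0.958) and Anxa13 to Ppp1r13b (0.952).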

How the data were processed

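Scanner output deposited by the authors gives a median intensity per spot and per local background for Cy3 and Cy5, per the file headers, read with Agilent Feature Extraction 10.5.1.1 (8.5.1.1 in the submitters' processing notes), and a log10 ratio of Cy5 over Cy3 after dye normalization. The log10 ratio in the deposited series matrix is the same, with a largest difference of 0.

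From the intensity columns, log2 Cy3/Cy5 was computed in R 4.3.3 with limma 3.58.1: normexp with offset 50, loess within arrays with 1639 control spots of 45018 at weight 0, and outlier spots (0.688%) left out. A probe entered the tests if its Cy3 signal was well above background on 2 or more arrays (31064 of 41174), and the probe with the highest mean Cy3 stood for its gene. A mean for each of 13 groups was fitted to all 28 arrays, with two-sided moderated tests adjusted by Benjamini-Hochberg over 21032 genes. The steps were tested on simulated data. Arrays give no counting depth; their number limits the precision.

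The members, the lists, the comparisons and the rule for named genes (all members and probes, up to 2 called genes each way per list, the 3 nearest genes per member) were chosen with earlier results of these data known. Not every gene the rule takes is named. Alternatives were other normalizations, filters, probe rules, blocks, array weights, sample sets and arrays left out. The normalizations with quantiles of both channels and with Cy3 scaled on the 4226 spots detected on all arrays were added after seeing the data.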

Additional observations from a re-analysis of the deposited data

Results flagged for a closer look

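The 4 members Spp1, Prom1, Bicc1 and Pkhd1 were singled out because their changes from undamaged liver differed between the times of CCl4, by the test of day 13 against day 3 with limma. The day 13 value lay lower by 2.84 on the log2 scale for Spp1 (-2.84), by 2.08 for Prom1 (-2.08), by 1.14 for Bicc1 (-1.14) and by 1.07 for Pkhd1 (-1.07), with adjusted p-values of 0.00152, 0.00561, 0.00203 and 0.0152. Both day 13 arrays lay below both day 3 arrays for each gene, on 1 slide. The same held for Anxa13, Plet1 and Cd44, which were not called. How many of all genes lacked overlap was not counted, so nothing is read from this.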

How the results depend on the processing

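Counts of members past the call rule moved with the normalization. For day 13 of CCl4 against undamaged livers the 2 calls became 0 with Agilent's log ratio, Cy3 alone, Cy3 scaled on detected spots, quantiles of both channels, offset 10, the mean of all probes and the 2 groups fitted alone, and 1 with the scan day as a block, adult liver alone or whole liver alone. Against day 3 the 4 became 2 with Agilent's log ratio, Cy3 alone, quantiles of both channels, offset 10 and the mean of all probes, and 1 with Cy3 scaled on detected spots. With Agilent's log ratio EM organoids against duct cells gave 4 members and hepatocytes against whole liver 2, and with quantiles of both channels the latter gave 1. Cy3 alone gave 1 for the Lgr5-sorted label against whole liver. With Cy3 scaled on detected spots, it gave 10 against whole liver and 5 against duct cells, and day 3 against undamaged livers gave 2. Fitted alone, the Lgr5-sorted label and duct cells gave 0 calls among all genes, with fewer arrays to estimate the spread. The mean of all probes gave 5 for DM against EM.

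Leaving out each array in turn gave 7 members throughout for EM organoids against duct cells, 10 against pancreas and 9 against adult liver, 9 for DM against adult liver, 0 for hepatocytes against whole liver, 7 to 9 and 3 to 6 for the Lgr5-sorted label against duct cells and whole liver, 4 to 5 at day 3, 0 to 2 at day 13, 2 to 4 between the days, 2 to 3 for DM against EM and 8 to 10 for duct cells against hepatocytes. Prom1 in the Lgr5-sorted label against duct cells was lost when any 1 array of either group was left out.

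Values that changed sign were, for EM organoids against duct cells, Pkhd1 with Agilent's log ratio (-0.85), Cy3 alone (-0.29), Cy3 scaled on detected spots (-1.20) and quantiles of both channels (-0.27), and Cftr with Cy3 alone (-0.24) and on detected spots (-1.15). For the Lgr5-sorted label they were Cd44 against duct cells (-1.91 with Cy3 alone, -1.38 without duct replicate 1; without duct replicate 2 it kept its sign, at 1.60), and Spp1 (-0.90) and Bicc1 (-0.12) against whole liver with Cy3 alone. With detected spots they were Prom1 1.17, Cftr 2.15, Pkhd1 0.55 and Gabrp 0.98 against duct cells, Prom1 2.62, Anxa13 2.32, Pkhd1 2.73 and Plet1 1.96 against whole liver, and Cftr -0.96 for EM organoids against pancreas. The cause was not tested. Of 987 values of called members under other settings 890 kept direction and call, 84 lost the call and 13 changed sign. These settings include a quantile scaling of average intensity between arrays, which leaves the log ratio unchanged. Its values equal those of the main fit by construction and say nothing about stability.

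A block for the replicate number changed no count of members called (7 for EM organoids against duct cells and 10 against pancreas, 8 and 5 for the Lgr5-sorted label against duct cells and whole liver, 0 for hepatocytes, 4 and 2 for days 3 and 13 against undamaged livers, and 4 between them). It gave 5632 calls among all genes in place of 5605 for EM organoids against duct cells. The labels do not say that numbers pair arrays. Deviations of same-numbered arrays correlated at 0.16 there, at 0.44 for duct cells with hepatocytes and 0.41 for hepatocytes with whole liver, where same-numbered arrays share a slide, and at -0.11 for day 13 with day 3.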
